A study of Homo sapiens with 6 samples.

Results

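Protein kinase A is the main cAMP-activated kinase of human cells, and the array carried 21 probes for 9 genes of its subunits and inhibitors, of 48803 probes in all. The probes were chosen by gene symbol in the platform annotation, whatever their signal: 2 for PRKACA, 5 for PRKACB, 3 for PRKAR1A, 1 each for PRKAR1B, PRKAR2A and PRKAR2B, 3 for PKIA, 2 for PKIB and 3 for PKIG. Probes of 1 gene are numbered here by their identifier. All RNA came from HEK293, a cell line long established from embryonic human kidney, and the labels name no genetic change in it. Treated cells (tRA/cAMP, 3 samples) were grown for 3 days with all-trans retinoic acid and N6,2'-O-dibutyryl-cAMP added to complete medium, and control cells (CNTRL, 3 samples) for 3 days in complete medium alone. Retinoic acid activates nuclear receptors, and dibutyryl-cAMP is a cell-permeant cAMP analog. Both were given together, so their effects cannot be told apart, and no dose is stated here.

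In the resting state, protein kinase A is a tetramer of 2 catalytic subunits, from PRKACA or PRKACB, held by a dimer of regulatory subunits. Type I regulatory subunits (PRKAR1A, PRKAR1B) are mostly soluble, while type II subunits (PRKAR2A, PRKAR2B) are mostly bound to A-kinase anchoring proteins. When cAMP binds the regulatory subunits, the catalytic subunits become active and phosphorylate substrates, among them the transcription factor CREB, which binds the cAMP response element (CRE). The small inhibitors PKIA, PKIB and PKIG block free catalytic subunits as pseudosubstrates and help to carry them out of the nucleus.

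Each sample was hybridized to 1 Illumina bead array, on which between 14792 and 16103 probes were detected, meaning a detection p-value under 0.01 against the negative control probes. Over the tested probes, correlations between arrays were 0.986 to 0.990 within groups and 0.976 to 0.981 between them, and no array stood apart. The file headers give all arrays the same number, with letters A to C for control and D to F for treated samples. Any effect that goes with these letters cannot be told apart from the treatment. The treatment showed in its known targets: CYP26A1, which degrades retinoic acid, was 50.6-fold higher (limma, adjusted p = 1.4e-08), and CGA, a hormone subunit gene with a classic CRE promoter, at least 49.3-fold higher from below detection. Without background correction their measured log2 differences were 4.95 for CYP26A1 and 4.69 for CGA, against 5.66 and 5.89 with it. The lower CGA value is a 25.8-fold ratio, below the bound of 49.3-fold, which holds only with background correction. RARB, a retinoic acid receptor, and DHRS3, a retinaldehyde reductase, were higher by 1.96 and 2.09 on the log2 scale. HEK293 has no single defining marker. Of 9 kidney lineage genes on the array, PAX2, PAX8, SIX2 and SALL1 were not detected. Of the 5 tested, EYA1 fell by 1.05 and GATA3 rose by 0.94 on the log2 scale (limma, adjusted p = 0.013 and 0.024), and WT1, LHX1 and OSR1 were not called. Of 7 fibroblast markers 4 were tested, and limma called COL3A1, LUM and TAGLN lower, while COL1A1 (-0.15) was not called. LUM and TAGLN entered the test through their control arrays alone. The summed linear intensity of the 4 was 2152 to 3081 in treated and 5825 to 6343 in control samples. COL3A1 was the brightest, at 10.87 in treated and 12.24 in control samples on the log2 scale, and weighs most in this sum. COL1A2, DCN and PDGFRB were not detected. Limma also called the neuronal marker MAP2 (1 of 4 tested) and the endothelial marker VWF (the 1 tested) lower, each detected on 1 treated and 3 control arrays, and none of 4 epithelial and 1 blood marker. The part of these markers in the results was not tested. The number of arrays limits the precision. Nothing in the labels tells whether the samples of a group were separate cultures, so the spread behind each p-value may be technical. In total RNA, a difference in a fraction of the cells and the same difference spread over all of them cannot be told apart.

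The promoters of the family were read for the CRE, whose full letters are TGACGTCA, because CREB, a substrate of protein kinase A, binds this element. The RefSeq windows (GRCh38.p14) ran from 250 bases before to 50 after a transcript start and covered 8 of the 9 genes in 25 windows. A full CRE stood in 2 of them, against 1.85% of 35116 windows of all genes. Both belong to PRKAR1A, and they overlap, so they share 1 site, at chr17:68512381-68512388. Another 9 member windows held only the half-site TGACG, on either strand and outside a full CRE. The PRKAR1B windows among them overlap and share their half-site. Of all windows 24.6% held TGACG, counting also the half-sites inside a full CRE, so this share is not on the same terms as the 9. Below are the 250 bases before the start for the PRKAR1A window with the CRE and for the first PKIB window, the member with the largest difference. CGA, DUSP1 and PDE4D, listed cAMP targets that rose with treatment, follow for comparison, with PDE4D by its 1 window of 8 that holds a half-site. Capitals mark full CREs and half-sites.
PRKAR1A (chr17:68512180-68512429, plus strand): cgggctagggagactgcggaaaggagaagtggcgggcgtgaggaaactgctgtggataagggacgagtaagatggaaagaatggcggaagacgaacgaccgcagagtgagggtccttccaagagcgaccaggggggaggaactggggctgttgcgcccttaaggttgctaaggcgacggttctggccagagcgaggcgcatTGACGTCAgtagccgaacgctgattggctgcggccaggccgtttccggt
PKIB (chr6:122471671-122471920, plus strand): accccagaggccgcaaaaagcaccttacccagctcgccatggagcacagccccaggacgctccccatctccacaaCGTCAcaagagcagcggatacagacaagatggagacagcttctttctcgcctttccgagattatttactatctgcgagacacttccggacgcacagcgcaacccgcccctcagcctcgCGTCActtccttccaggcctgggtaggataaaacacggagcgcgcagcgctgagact
CGA (chr6:87095107-87095356, minus strand): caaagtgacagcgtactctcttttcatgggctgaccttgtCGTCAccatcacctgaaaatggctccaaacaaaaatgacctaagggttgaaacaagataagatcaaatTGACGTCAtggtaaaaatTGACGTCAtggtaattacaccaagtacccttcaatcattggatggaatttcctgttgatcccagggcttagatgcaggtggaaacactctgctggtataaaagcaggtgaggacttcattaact
DUSP1 (chr5:172771196-172771445, minus strand): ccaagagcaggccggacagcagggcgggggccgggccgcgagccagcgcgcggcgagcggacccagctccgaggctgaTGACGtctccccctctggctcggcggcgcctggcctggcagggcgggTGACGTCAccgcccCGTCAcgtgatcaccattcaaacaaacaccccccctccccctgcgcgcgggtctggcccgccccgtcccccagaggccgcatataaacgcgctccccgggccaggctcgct
PDE4D (chr5:59587626-59587875, minus strand): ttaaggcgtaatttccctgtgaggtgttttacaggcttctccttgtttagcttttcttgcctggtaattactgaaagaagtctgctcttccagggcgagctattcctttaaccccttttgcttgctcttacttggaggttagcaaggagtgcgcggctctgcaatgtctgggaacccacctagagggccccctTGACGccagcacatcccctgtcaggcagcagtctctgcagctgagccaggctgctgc
Counted from the transcript start, CGA held 2 full CREs, at -142 and -124, and DUSP1 held 1, at -125. The PRKAR1A site lay at -49 in the printed window, and at 3, after the start, in the other window that holds it. NR4A2, another listed target that rose, had 0 windows and could not be read. PDE4D held no full CRE in any of its 8 windows, so a full CRE did not stand in the windows of every printed target that rose. Sequence outside the windows was not read. PKIB had no full CRE but 2 half-sites in the stretch shown. A match of letters is a description and not a bound site.

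The comparison asked whether the genes of the kinase itself differed after 3 days with tRA and cAMP. No member probe passed the test. Of the 21 probes 9 were detected on all 6 arrays and were tested, for PRKACB, PRKAR1A, PRKAR1B, PRKAR2A, PKIA and PKIB. In limma 0 were higher and 0 lower at an adjusted p under 0.05, against 2.01% of all 14923 tested probes (300 called; 0.905% higher and 1.11% lower). At an unadjusted p under 0.05 in limma 2 of the 9 differed, PKIB and PRKAR1B, against 13.8% of all tested probes. In the same 2 the treated and control arrays did not overlap, as in 18.5% of all tested probes. The median log2 difference of the 9 probes was 0.03, against -0.0002 over all tested probes, and the median size of the difference regardless of sign was 0.14, against 0.13.

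The other 12 probes were too dim to be tested: 8 were detected on no array, and 4 on 1 to 3 arrays. PRKACA, PRKAR2B and PKIG had no tested probe, so the main test gives no measure of a change for these genes. With no filter, the PRKACA probes differed by 0.13 and -0.08 and PRKAR2B by 0.29 (limma, adjusted p = 0.91, 0.98 and 0.73). These values rest on signals near background. A probe below detection does not show that its gene is silent.

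**Figure D1:**
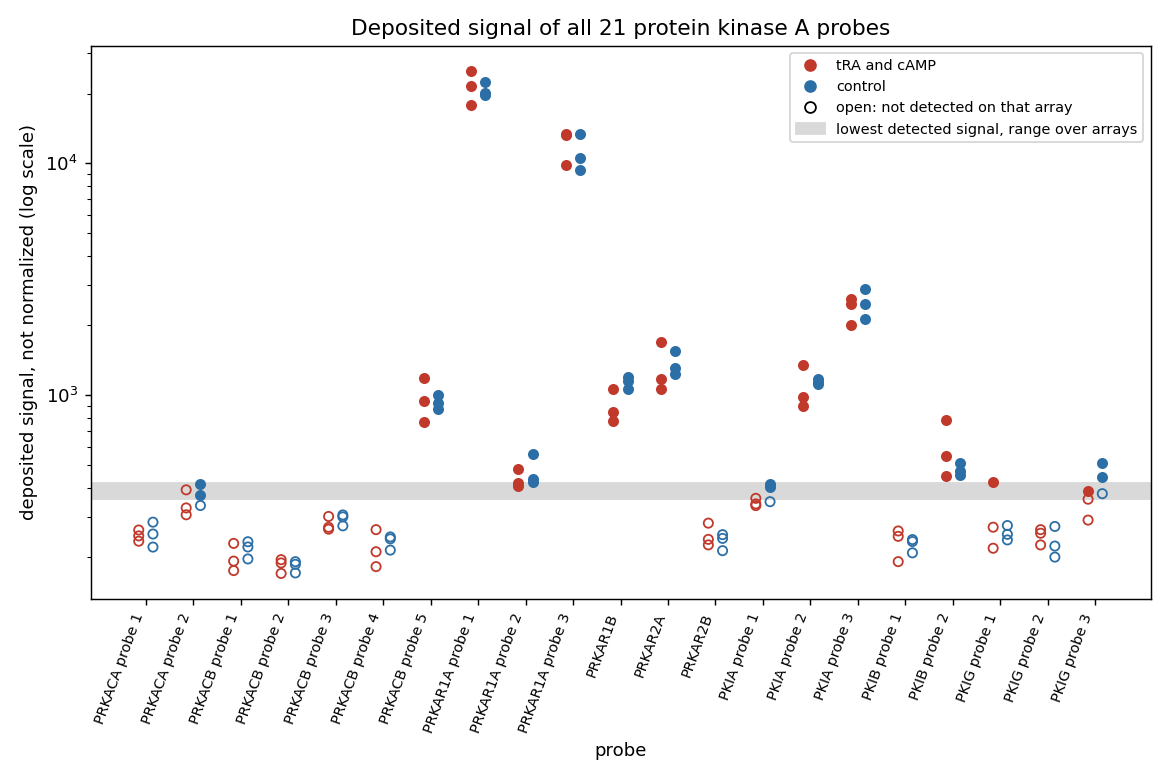
Deposited signal (not normalized, log scale) of the 21 probes on the vertical axis, with 1 point per array, tRA/cAMP left of control for each probe; filled points were detected and open ones were not. The grey band spans the lowest detected signal of the 6 arrays, 359 to 420; 9 probes have filled points on all 6 arrays, and all probes of PRKACA, PRKAR2B and PKIG lie mostly in or under the band.

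Among the catalytic subunits, PRKACA, the major form in most tissues, stayed at the detection limit. Its brighter probe, ILMN_2395314, had deposited signals of 391, 305 and 327 in treated and 335, 371 and 413 in control samples, with detection on 0 treated and 2 control arrays. These signals overlapped between groups and lay close to the lowest signal that counts as detected on each array. Its other probe, ILMN_1786195, had signals of 222 to 284 over all arrays and was detected on none. The annotation lists both probes against 1 transcript, NM_207518, of the 3 curated RefSeq transcripts of PRKACA. Which transcripts the probes can bind was not tested.

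PRKACB, the second catalytic gene, known for many alternative first exons, had 5 probes listed against 3 of its 30 curated transcripts. Probe 5 (ILMN_2374234, listed for NM_002731) had log2 levels of 9.52, 9.84 and 9.49 in treated samples, against 9.28, 9.49 and 9.61 in control samples. The groups overlapped: 1 control array lay above 2 of the treated ones. The difference was 0.16 (standard error 0.15), a 1.12-fold ratio that did not pass the test (limma, adjusted p = 0.71), and its 95% interval ran from 0.891-fold to 1.40-fold. Probe 3, listed against the same transcript, was detected on no array, with signals of 265 to 305. The probes listed for NM_182948 (probe 1) and NM_207578 (probes 2 and 4) were likewise detected on no array, with signals of 170 to 263. PRKX and PRKACG, the other genes for kinases of this type, were detected on no array either.

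Both type I regulatory subunits had tested probes. PRKAR1A, whose product binds and restrains the catalytic subunits in nearly all tissues, had 3 tested probes. Probe 1 (ILMN_1738632) had log2 levels of 14.41, 14.54 and 14.31 in treated and 14.25, 14.34 and 14.23 in control samples. Treated replicate 3 lay within the control range, and the difference was 0.14 (standard error 0.12; limma, adjusted p = 0.67). Its 95% interval, 0.917-fold to 1.33-fold, is the narrowest among the members in log2 terms. Probe 3 (ILMN_2389590) gave 13.71, 13.57 and 13.45 in treated and 13.50, 13.21 and 13.34 in control samples, a difference of 0.23 (standard error 0.13; limma, adjusted p = 0.51). Here too the groups overlapped, by 1 array on each side. The dimmest of its probes, probe 2 (ILMN_2277077), had 8.12, 7.68 and 8.08 in treated and 8.21, 7.88 and 7.82 in control samples, a difference of -0.01 (standard error 0.16; limma, adjusted p = 0.99).

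The 3 PRKAR1A probes, each listed against another transcript, showed no detectable difference in response. Set against probe 1 within each array, probe 3 shifted by 0.08 and probe 2 by -0.15 on the log2 scale between treated and control samples (two-sided exact permutation test, p = 0.6 each; adjusted p = 0.8 over 3 probe pairs). With 3 arrays a group the smallest p this test can give is 0.1. Of the genes whose promoters are printed above with a full CRE, CGA was at least 49.3-fold and DUSP1 3.18-fold higher. Without background correction CGA was 25.8-fold higher. PDE4D, with no full CRE in the windows read, was 2.05-fold higher. These targets were printed because they were called higher, so their rise says nothing about genes with a CRE in general. Other genes with a full CRE were not examined. The upper ends of the PRKAR1A intervals were 1.33-fold, 1.28-fold and 1.43-fold (probes 1, 2 and 3). Probe 2 had deposited signals of 404 to 559, not far above the lowest detected signals, so its 1.28-fold is not a firm upper limit.

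PRKAR1B, the type I form best known from brain, was the member with the second smallest p. Its probe, ILMN_1674390, had log2 levels of 9.31, 9.65 and 9.52 in treated samples and 9.75, 9.84 and 9.85 in control samples. All treated arrays lay below all control arrays. The difference was -0.32 (standard error 0.13), a level 1.25-fold lower with a 95% interval of 1.02 to 1.53, and it did not pass the test over all probes (limma, unadjusted p = 0.031, adjusted p = 0.29). The log2 level of PRKAR1A minus that of PRKAR1B was 5.10, 4.89 and 4.79 in treated samples and 4.50, 4.50 and 4.39 in control samples. These within-array differences did not overlap, and their means differed by 0.47, or by 0.38 to 0.53 without any single array. The exact permutation p was 0.1, the smallest possible, and 0.2 adjusted over the 2 pairs of members that could be compared. This test therefore cannot reach the 0.05 level, and whether the type I genes responded unequally was not tested in another way. The value itself cannot rank the levels of the genes, since probes differ in brightness.

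Of the type II subunits only PRKAR2A, the widely expressed form that anchoring proteins hold at membranes and the cytoskeleton, could be tested. Its probe, ILMN_1681888, had log2 levels of 10.54, 9.81 and 10.08 in treated and 10.18, 10.10 and 10.07 in control samples. The treated arrays spread on both sides of the control arrays (SD 0.37 against 0.06, n = 3 each). The difference was 0.03 (standard error 0.18; limma, adjusted p = 0.97), with a 95% interval from 0.777-fold to 1.34-fold. Without treated replicate 1, the highest, it was -0.17. PRKAR1A minus PRKAR2A differed by 0.11 between groups (exact permutation p = 0.8), and by -0.11 without treated replicate 2. PRKAR2B, the type II form known from fat and brain, had signals of 281, 239 and 226 in treated and 251, 214 and 242 in control samples and was detected on 0 of 6 arrays.

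**Figure D2:**
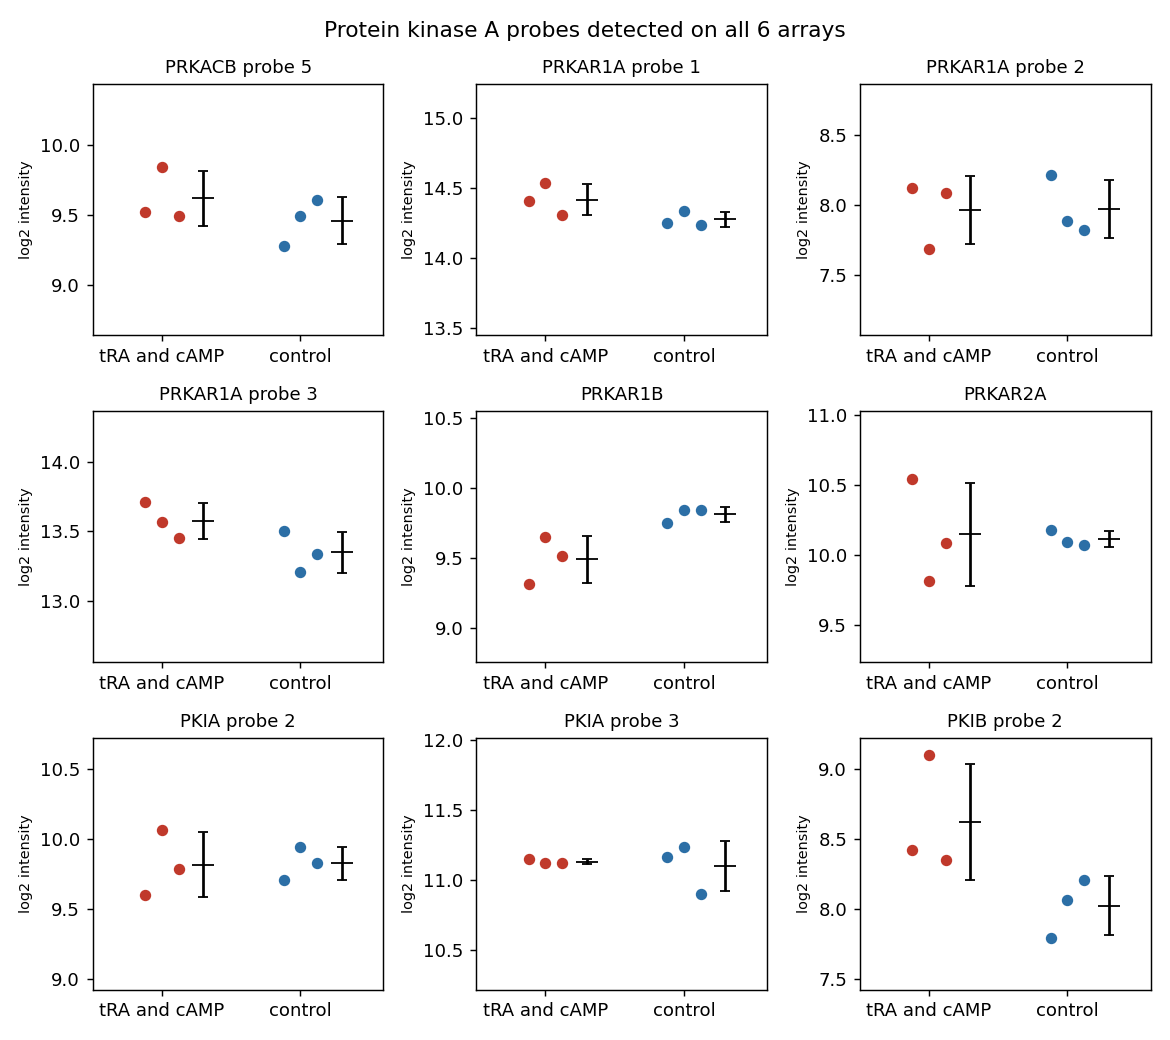
Normalized log2 intensity of the 9 tested probes, 1 panel per probe, with tRA/cAMP (red) left of control (blue), 1 point per array and the mean with SD beside them. All vertical axes span the same log2 range, and only in the PRKAR1B and PKIB panels do the groups lie apart.

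Among the inhibitors, PKIB showed the largest difference of any tested member. Probe 2 (ILMN_2337263) had log2 levels of 8.42, 9.10 and 8.35 in treated samples, against 7.79, 8.07 and 8.21 in control samples. All treated arrays lay above all control arrays, with treated replicate 2 well above the other two. The difference was 0.60 (standard error 0.20), a 1.51-fold ratio with a 95% interval of 1.10 to 2.08, and it did not pass the test (limma, unadjusted p = 0.015, adjusted p = 0.21). Without treated replicate 2 the difference was 0.36 (limma, unadjusted p = 0.057, adjusted p = 0.46), and without background correction 0.37 (adjusted p = 0.20). The probe is dim: its deposited signals were 545, 784 and 448 in treated and 472, 454 and 509 in control samples, not far above the lowest detected signals, and before normalization the groups overlapped. Probe 1 of PKIB, listed against another transcript, had signals of 192 to 260 and was detected on no array.

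PKIA, the inhibitor first purified from muscle, was detected with 2 of its 3 probes and differed little. Probe 3 (ILMN_2337974) had log2 levels of 11.15, 11.13 and 11.12 in treated and 11.17, 11.24 and 10.90 in control samples, a difference of 0.03 (standard error 0.13; limma, adjusted p = 0.95). Probe 2 (ILMN_1762262) had 9.60, 10.06 and 9.79 in treated and 9.71, 9.94 and 9.83 in control samples, a difference of -0.01 (standard error 0.15; limma, adjusted p = 0.99). In both the groups overlapped, and both 95% intervals ended below 1.25-fold higher. Relative to probe 3, probe 2 shifted by -0.04 between groups (exact permutation p = 0.8; adjusted p = 0.8). The third probe, ILMN_1674031, was detected on 0 treated and 2 control arrays. Over all arrays it differed by -0.13. Its unadjusted p in limma was 0.60 with no filter and with detection at p under 0.05 (adjusted p = 0.94 and 0.88). Without control replicate 1, the lowest control and not detected, the probe entered through its control arrays alone, at -0.42 (standard error 0.16). Arrays chosen this way favour a lower treated level, so the -0.42 is no test of a change.

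PKIG, the inhibitor broadly expressed in many tissues, had no probe that could be tested. Its brightest, ILMN_2406169, had signals of 356, 388 and 290 in treated and 445, 512 and 376 in control samples, with detection on 1 treated and 2 control arrays. Only 1 treated array exceeded the lowest control array. Looser filters let this probe into the test with a difference of -0.57. Its unadjusted p in limma was 0.053 with detection at a p under 0.05 and 0.044 with detection on at least 3 of 6 arrays (adjusted p = 0.39 and 0.37). Without control replicate 3, the lowest control and not detected, the probe entered through its control arrays alone, at -0.76 (standard error 0.23). That choice of arrays favours a lower treated level, so the -0.76 is no test of a change. The other PKIG probes were detected on 1 treated array (ILMN_1702911) and on no array (ILMN_1796627).

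**Figure D3:**
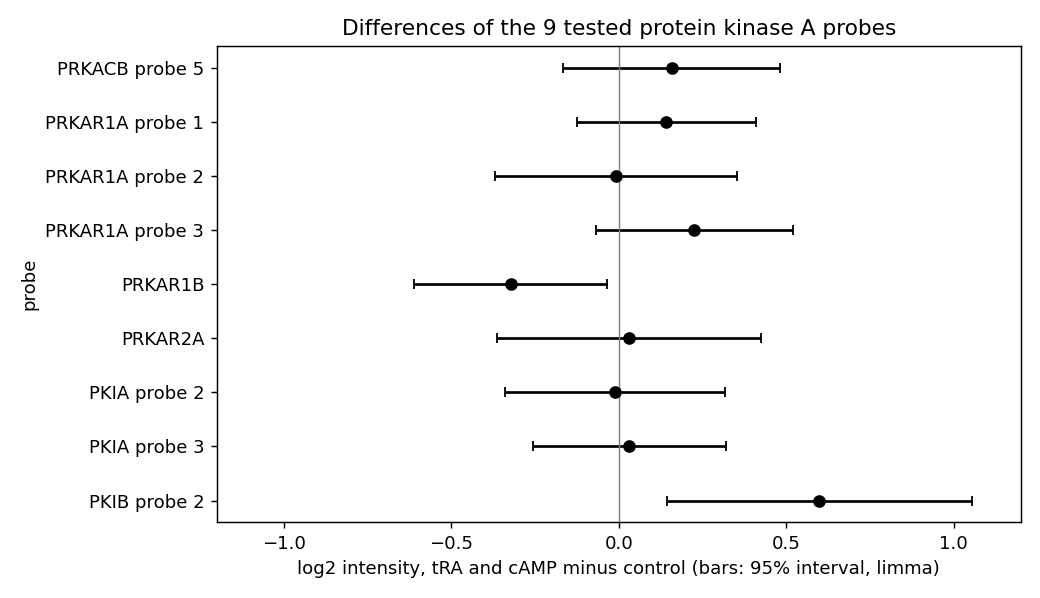
Log2 difference, tRA/cAMP minus control, of the 9 tested probes (horizontal axis) with its 95% interval from limma. The PRKAR1B interval (-0.61 to -0.04) lies below 0 and the PKIB interval (0.14 to 1.06) above it, the other 7 include 0, and these intervals are not adjusted for the number of probes tested.

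The genes whose pattern over the 6 arrays was most like that of PKIB were IDUA, DPH1 and ZNF543. Likeness was the root mean square difference between log2 levels, each centred on its mean over the 6 arrays, and PKIB was used because no member passed the test. It came to 0.06 for IDUA, 0.08 for DPH1 and 0.11 for ZNF543, among 9450 genes detected on all arrays. None of the 3 passed the test itself (limma, adjusted p = 0.27, 0.18 and 0.32).

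Upstream of the kinase, the list of G proteins, which pass receptor signals to adenylyl cyclases, and of these cAMP-making enzymes held 9 tested genes. None was called by limma (0 higher, 0 lower), and 3 reached an unadjusted p under 0.05. Of all 9944 tested genes 2.13% were called, 0.905% higher and 1.23% lower, and 13.3% reached an unadjusted p under 0.05. The 3 did not share a direction. ADCY1, a calcium-regulated cyclase, differed by 0.40 (standard error 0.13; limma, adjusted p = 0.19), GNAL, a stimulatory G protein subunit, by 0.47 (standard error 0.19; limma, adjusted p = 0.32), and ADCY7, another cyclase, by -0.50 (standard error 0.22; limma, adjusted p = 0.34). GNAS, the main stimulatory subunit, differed by -0.04. The median of the list was -0.04, against 0.002 over all tested genes.

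Enzymes that clear cAMP and factors that read the kinase did hold called genes. Of 7 tested cAMP phosphodiesterases 2 rose and 0 fell (median 0.09). PDE7B had log2 levels of 8.47, 8.61 and 8.42 in treated samples, against 7.05, 7.18 and 6.65 in control samples, all below detection, and was at least 2.00-fold higher (limma, adjusted p = 6.9e-04). Its log2 difference was 1.54, and 0.79 without background correction, a 1.73-fold ratio below that bound, with the call kept. PDE4D, itself a substrate of protein kinase A, had 11.13, 10.85 and 10.94 in treated and 10.05, 9.83 and 9.93 in control samples and rose 2.05-fold (limma, adjusted p = 0.0024). For neither did the groups overlap. PDE7B entered the test through its treated arrays alone, and a filter asking for detection on every array leaves it out. PDE4D stayed called under that filter.

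Of 8 tested genes of the CREB family, its coactivators and the SIK kinases, 1 rose and 0 fell (median 0.10). It was SIK2, a kinase that holds CREB coactivators in the cytoplasm and that protein kinase A inhibits. It had 7.76, 7.78 and 7.80 in treated samples, against 6.82, 6.97 and 7.17 in control samples, where it was not detected, and was at least 1.22-fold higher (limma, adjusted p = 0.013). This call was lost in 9 of 16 alternatives, among them those without background correction and without treated replicate 1 or 2 or control replicate 1 or 2 (limma, adjusted p = 0.051 to 0.14 over the 9). SIK2 entered the test through its treated arrays alone. A filter asking for detection on every array leaves it out, so the count of 1 depends on the filter. CREB1, the main CREB gene, differed by 0.03.

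Of 27 listed target genes of cAMP and CREB 25 were on the array and 10 were tested. NR4A1, NR4A3, FOS, PER1, SST, PPARGC1A, CRH, VIP, TH, CHGA, SCG2 and PDE4B were detected on no array. Of the 10 tested 4 rose and 0 fell. At an unadjusted p under 0.05 in limma 6 of the 10 were higher and 1 lower, against 13.3% of all tested genes in either direction. The lower one was BDNF, a neurotrophin, at -0.47 (standard error 0.14; limma, adjusted p = 0.15), with the groups apart. The median difference was 0.60, against 0.09 for the 6 members by their brightest tested probes. The 4 were CGA and DUSP1, described above, PDE4D, and NR4A2, an orphan nuclear receptor, whose 2.32-fold rise had an adjusted p of 9.4e-04 in limma. These targets were listed with earlier results of the data known, so their direction is no independent evidence. CGA entered the test through its treated arrays alone, and a filter asking for detection on every array leaves it out. DUSP1, PDE4D and NR4A2 stayed called under that filter.

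Anchoring proteins, which place the kinase in the cell, held no called gene among 14 tested (limma, median 0.09), and 1 reached an unadjusted p under 0.05. It was AKAP8, a nuclear anchoring protein, whose log2 levels were 10.49, 10.53 and 10.24 in treated and 9.95, 9.90 and 9.95 in control samples, a difference of 0.49 (standard error 0.13; limma, adjusted p = 0.096). The groups did not overlap. GSKIP, which also binds GSK3, followed at 0.22 (standard error 0.14; limma, adjusted p = 0.55).

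Of cAMP sensors outside the kinase only POPDC3, a membrane protein of the Popeye family, and HCN3, a channel gated by cyclic nucleotides, were tested, and limma called 0, while 1 reached an unadjusted p under 0.05. POPDC3 differed by 0.64 (standard error 0.15; limma, adjusted p = 0.074) without overlap between groups, and passed the threshold without treated replicate 3. HCN3 differed by 0.15 (standard error 0.17; limma, adjusted p = 0.77). Among 11 tested genes for turnover of the kinase and for phosphatases that oppose it, limma called 0, and 0 reached an unadjusted p under 0.05 (median 0.05). PPP1R1A, an inhibitor of protein phosphatase 1 that the kinase activates, was detected on 0 treated and 3 control arrays, so its treated level is only a bound, and it did not pass the test (limma, adjusted p = 0.64). PPP3CA, a calcineurin subunit, differed by -0.14 (standard error 0.13).

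Related kinases of the AGC group, which share their catalytic fold with PRKACA and PRKACB, held 1 called gene among 15 tested (median 0.07). SGK1, a kinase induced by glucocorticoids and serum, had 10.24, 10.31 and 10.38 in treated and 9.75, 9.85 and 9.57 in control samples and rose by 0.59 on the log2 scale (limma, adjusted p = 0.047). Its call lay at the threshold and was lost in 11 of 17 alternatives, among them the replicate number as a block and the removal of any single array (limma, adjusted p = 0.062 to 0.38 over the 11).

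**Figure D4:**
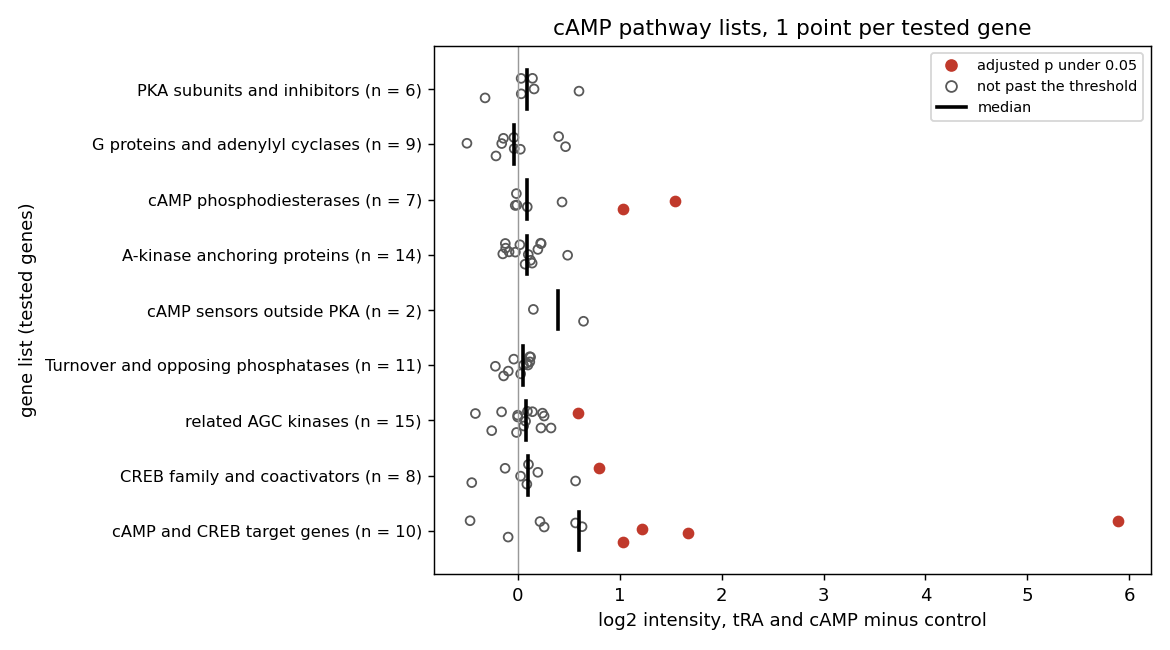
Log2 difference, tRA/cAMP minus control, on the horizontal axis for each tested gene of the family and of 8 lists, by its brightest tested probe; red points passed the test in limma, open points did not, and bars mark medians. The 6 members lie between -0.32 and 0.60 with no red point, and the list of cAMP and CREB targets reaches 5.89 (CGA). CGA, PDE7B, SIK2 and PPP1R1A were below detection in a whole group and stand at their measured differences.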

How the data were processed

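Total RNA of 3 tRA/cAMP and 3 control samples was labelled with biotin and hybridized to bead arrays, per the labels' protocols. The deposited intensity values are average bead signals per probe, from BeadStudio per the submitters' processing notes, with neither background subtraction nor normalization visible in the values. Detection p-values were deposited beside them, per the file headers, and their steps fit 759 negative controls. A second deposited intensity table was quantile normalized, judging by its equal columns, and served as an alternative; the sources used here do not tell how it was made.

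The neqc function (limma 3.58.1, R 4.3.3) gave background-corrected, quantile-normalized log2 values, with an offset of 16. Of 48803 probes, 28098 had 1 gene name, 13 had several and 20692 were not named here. The test took the 14923 probes with a detection p under 0.01 in every sample of 1 group or both. Differences were fitted with lmFit and eBayes over all 6 arrays, without covariates, and p-values adjusted by Benjamini-Hochberg over all tested probes. For the lists, the brightest tested probe stood for a gene (9944 genes). A gene below detection on a whole group has only a bound, against the higher of each array's lowest detected level and its own.

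Within-array differences between probes were tested by exact permutation over samples. The members and lists were chosen with earlier results of these data known. Genes named are all members and up to 4 called genes of each list, or otherwise the 2 with the smallest p. The 3 genes most like the leading member and the treatment checks are named too. GNAS, CREB1, ADCY7, BDNF, MAP2, VWF and the kidney and fibroblast genes were added after their values were seen. Alternatives covered background, normalization, filter, variance model, replicate block, probe choice and leaving out each array. The functions were tested on simulated data. Promoter windows were RefSeq's. Plots used matplotlib 3.10.9 in Python 3.11.15.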

Additional observations from a re-analysis of the deposited data

How the results depend on the processing

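No member probe was called in any of the 17 alternatives, and the smallest adjusted p among members was 0.19 (limma, 1 probe per gene). PKIB stayed between 0.36 and 0.74 and PRKAR1B between -0.43 and -0.23 on the log2 scale in all of them. Some members near 0 changed sign without passing the test. Without normalization between arrays, where the median of all tested probes was -0.10, PKIA probe 3 was at -0.075 and PRKAR2A at -0.081. With 1 array left out, PKIA probe 2 lay between -0.14 (without treated replicate 2) and 0.10 (treated replicate 1), with 0.006 and 0.05 without treated replicate 3 and control replicate 2. PKIA probe 3 lay between -0.069 (control replicate 3) and 0.10 (control replicate 2), PRKAR2A between -0.17 (treated replicate 1) and 0.20 (treated replicate 2), and PRKAR1A probe 2 between -0.088 (treated replicate 1) and 0.13 (treated replicate 2), with 0.11 without control replicate 1. PRKAR1A minus PRKAR2A ranged from -0.11 to 0.32 and PRKAR1A minus PRKAR1B from 0.38 to 0.53 over the leave-one-out fits.

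The counts over all features moved more. Called probes were 135 higher and 165 lower, and called genes 90 higher and 122 lower. Without normalization 62 probes and 39 genes were higher, and higher probes made up 32.8% of calls, against 45.0%. Without a filter 60 probes were higher and 71 lower, and 39 genes higher and 55 lower. With detection on all 6 arrays 101 probes and 73 genes were lower. With detection at 0.05, 107 probes and 80 genes were lower and 58 genes higher. With 1 array left out, 66 to 88 probes and 41 to 59 genes were higher, and 89 to 112 probes and 63 to 77 genes lower, in fits with fewer arrays. With the replicate number as a block 105 probes and 77 genes were lower; same-numbered samples did not deviate together (correlations 0.04, -0.04 and -0.04, with 2 of 6 samples closest to their own number), so the numbers were not taken as pairs. Other causes were not tested. Signal near background limits PRKAR2B, which entered the test only without a filter, and PRKACA and PKIG, which also entered with looser detection or without 1 control array.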
